A study of Mus musculus with 2 samples.

Results

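Islet macrophages with the highest share of transcripts for Cxcl1, Cxcl3, Il1a and Ptgs2, here called Cxcl1 and Il1a-rich macrophages or members, numbered 287 of 2863 macrophages, out of 3418 barcodes in all. They were chosen cell by cell from these measured values. Barcodes were kept with at least 500 genes, at least 1000 unique molecular identifiers (UMIs, each standing for 1 captured transcript) and at most 10% mitochondrial UMIs. A macrophage needed at least 5 UMIs of the complement genes C1qa, C1qb and C1qc together. A member was a macrophage whose summed share of the 4 genes lay at or above the 90th percentile of its own library, so that members are by construction the top 10% of each library, and their number carries no information about how common such cells are.

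The study counted transcripts of single immune cells from pancreatic islets of male C57BL/6J mice fed chow. Each of 2 droplet libraries (10x 3' chemistry, version 3) held cells pooled from 6 to 8 mice and sorted as DAPI- Epcam- CD45+, which keeps live non-epithelial leukocytes. One pool carries a label of 12 weeks, with 162 members among 1620 macrophages, and the other a label of 1 week, with 125 members among 1243. What the weeks refer to is not stated in the labels, and each time label is 1 library with its own experiment number, so time, pool and experiment cannot be told apart.

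Macrophages sense microbial products, dead cells and cytokines through receptors that activate the transcription factor NF-kB. It switches on chemokines such as Cxcl1, Cxcl2 and Cxcl3, which call neutrophils, cytokines such as Il1a, Il1b and Tnf, which pass the alarm to other cells, and Ptgs2 (COX-2), the inducible enzyme of prostaglandin synthesis. The same response induces its own brakes, among them inhibitors of NF-kB, proteins that degrade cytokine mRNA, and the restraining cytokine Il10. In islets, resident macrophages lie beside beta cells, and IL-1 from macrophages is known to disturb insulin secretion.

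Cxcl1 (ENSMUSG00000029380, chr5:90891241-90893115, plus strand, GRCm38) and Cxcl3 (ENSMUSG00000029379, chr5:90786103-90789600, plus strand) lie in one cluster of chemokine genes with Cxcl2 (chr5:90903871-90905938). Il1a (ENSMUSG00000027399) lies at chr2:129299610-129309972 on the minus strand and Ptgs2 (ENSMUSG00000032487) at chr1:150100031-150108227 on the plus strand. The 130 bases before each start site are printed below from RefSeq (GRCm38.p6), since the genes that chose the cells, and Cxcl2 beside them, are thought of as NF-kB targets. Capitals mark matches to the NF-kB consensus on either strand, with overlapping matches joined.
Cxcl1, chr5:90891115-90891244: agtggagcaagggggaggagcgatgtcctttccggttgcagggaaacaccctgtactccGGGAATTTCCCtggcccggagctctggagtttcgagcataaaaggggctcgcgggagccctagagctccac
Cxcl3, chr5:90785971-90786100: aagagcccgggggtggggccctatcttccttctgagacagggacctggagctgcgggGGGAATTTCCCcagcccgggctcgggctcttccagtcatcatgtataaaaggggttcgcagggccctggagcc
Cxcl2, chr5:90903769-90903898: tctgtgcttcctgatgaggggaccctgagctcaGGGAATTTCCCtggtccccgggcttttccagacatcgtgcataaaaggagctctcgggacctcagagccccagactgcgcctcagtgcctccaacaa
Il1a, chr2:129309973-129310102, minus strand: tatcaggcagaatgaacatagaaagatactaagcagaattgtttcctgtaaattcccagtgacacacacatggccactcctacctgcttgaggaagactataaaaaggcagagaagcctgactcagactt
Ptgs2, chr1:150099901-150100030: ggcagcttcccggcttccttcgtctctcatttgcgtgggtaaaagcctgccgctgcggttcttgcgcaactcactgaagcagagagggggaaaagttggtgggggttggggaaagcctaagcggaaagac
The 3 chemokine windows share the same run of letters, and the Il1a and Ptgs2 windows hold no match. In the 250 bases before the start, the NF-kB consensus stood on either strand in 1281 of 32851 RefSeq mouse promoters (3.90%). These are matches of letters and say nothing of binding.

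Members carried the 4 genes at many times the level of the remaining macrophages, as the rule requires, so these values are a description with no test. Levels are given as CPM, a gene's count per 1000000 UMIs of the cells summed in each library. Cxcl1 stood at 1214 CPM in 12-week and 1242 CPM in 1-week members, against 23.8 and 66.9 CPM in the remaining macrophages of those libraries. Cxcl3 stood at 362 CPM in 12-week and 535 CPM in 1-week members, against 28.2 and 45.4 CPM. Il1a had 589 and 843 CPM in members of the 12-week and 1-week libraries, against 53.4 and 134.8 CPM in remaining macrophages, and Ptgs2 had 431 and 304 CPM, against 41.1 and 36.9 CPM. All 4 genes were high in the members of both libraries, and no remaining group reached a member group.

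**Figure D1:**
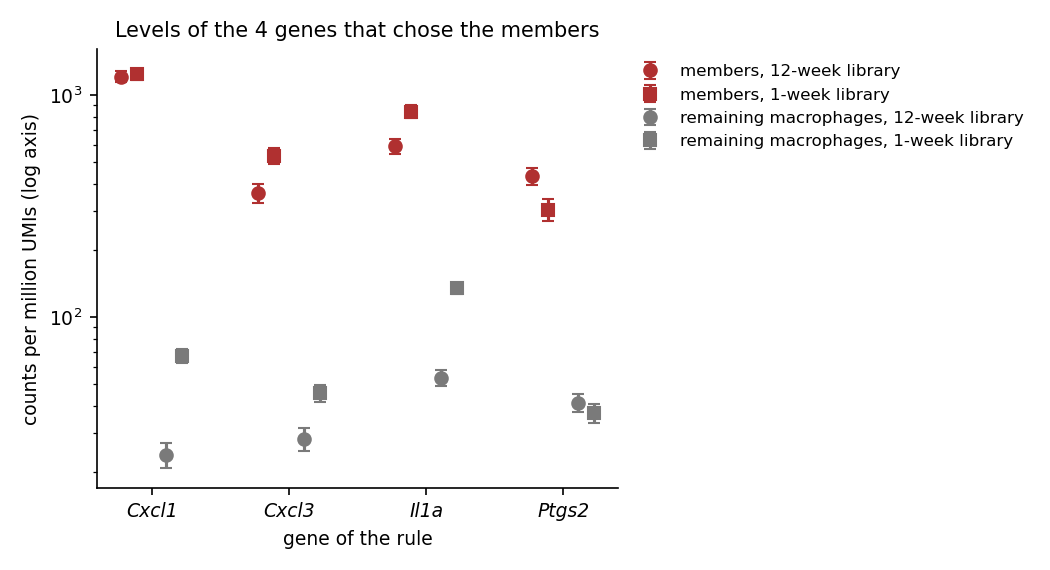
Level of the 4 genes that chose the cells, in CPM on a log axis, in members (red) and remaining macrophages (grey), with circles for the 12-week and squares for the 1-week library and exact Poisson 95% intervals that cover counting error only. Members lie above for every gene because they were chosen by these values, with Cxcl1 at 1214 and 1242 CPM in members, against 23.8 and 66.9 CPM in remaining macrophages.

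The score is a continuous range and not a separate cell type. The threshold was 0.103% of a cell's UMIs at 12 weeks and 0.150% at 1 week. The lowest member stood at 0.104% at 12 weeks and 0.150% at 1 week, and the highest remaining macrophage at 0.103% and 0.150%. At 12 weeks 25 members lay within 1.25 times the threshold and 54 remaining macrophages reached at least 0.75 times of it, and at 1 week the numbers were 32 and 61. A member held a median of 12 UMIs of the 4 genes at 12 weeks (range 3 to 118) and 22 at 1 week (range 2 to 97), so membership near the threshold rests on few molecules. The remaining macrophages were not free of these transcripts. Members held 64.9% of the macrophages' UMIs of the 4 genes at 12 weeks and 50.7% at 1 week. No UMI of any of them was found in 862 macrophages (53.2%) at 12 weeks and 534 (43.0%) at 1 week. The 2 libraries differed in where the threshold fell. Under the 1-week threshold 108 of 1620 12-week macrophages would be members (6.67%, 95% exact binomial interval 5.50 to 7.99), and under the 12-week threshold 202 of 1243 1-week macrophages would be (16.3%, 14.2 to 18.4).

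The 4 genes were not all found in the same cells. At 12 weeks 40, 78, 40 and 4 members had UMIs of 1, 2, 3 and 4 of the genes, and at 1 week 16, 49, 47 and 13. Depth rose in the same order, with medians of 6225, 6473, 7470.5 and 8421.5 UMIs per cell at 12 weeks. At 1 week the medians were 4929.5, 7245, 7324 and 9782 UMIs. How far depth set these counts was not tested. Cxcl1 was the most abundant of the 4 in 79 members at 12 weeks and 58 at 1 week, Cxcl3 in 23 and 26, Il1a in 30 and 32, and Ptgs2 in 30 and 9. To see whether the genes go together apart from the rule, each was left out in turn and the top 10% chosen on the other 3. Cxcl1 was then 9.56 times as high in the chosen cells as in the rest at 12 weeks and 4.09 times at 1 week, and Il1a 4.56 and 2.57 times. The ratios for Cxcl3 were 2.23 and 3.88 and for Ptgs2 2.81 and 3.69. Every left-out gene was higher in cells chosen without it, in both libraries, and by less than under the full rule. With each cell thinned to 2000 UMIs, which 1592 macrophages at 12 weeks and 1188 at 1 week reached, Il1a was found in 30.9% of cells with Cxcl1 at 12 weeks and 41.1% at 1 week, against 11.1% and 19.7% of cells without it. Ptgs2 was found in 12.9% and 13.9% of cells with Cxcl1, against 9.15% and 6.65% of cells without it. For Cxcl3 the shares with Ptgs2 were 10.2% and 15.2%, against 9.44% and 6.83% of cells without Cxcl3, so this pair was hardly linked at 12 weeks.

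The members are macrophages by markers that the rule did not use. Csf1r, the receptor for the macrophage growth factor, had UMIs in 90.1% of members at 12 weeks and 93.6% at 1 week, against 90.7% and 89.1% of remaining macrophages. Adgre1, which encodes the macrophage surface protein F4/80, had UMIs in 69.1% and 69.6% of members, against 70.6% and 70.2%. Neither was called between the groups. The 10 neutrophil markers summed to 145 CPM in 12-week and 22.2 CPM in 1-week members, against 73.4 and 24.5 CPM in the remaining macrophages, with Ly6g at 0 in all of them. In members 4 of the 10 were at 0 at 12 weeks and 6 at 1 week. Csf3r, the receptor for granulocyte colony-stimulating factor, had UMIs in 18.5% and 14.4% of members, against 17.1% and 15.8% of remaining macrophages. The 12-week excess came with 1 member that held all 40 UMIs of S100a8 and all 56 of S100a9. Monocyte markers summed to 25.9 and 19.3 CPM in members, against 34.2 and 51.5 CPM. The 9 dendritic cell markers summed to 161 and 144 CPM, against 122 and 115 CPM, and most of both sums was Siglech. B cell and T and NK cell markers summed to at most 21.2 CPM in any member group, and all 6 mast cell and basophil markers were at 0. Islet endocrine transcripts, mostly insulin, summed to 1729 CPM in 12-week and 5722 CPM in 1-week members, against 6200 and 21212 CPM in the remaining macrophages. Single cells carried much of these sums. At 12 weeks the highest remaining macrophage for each gene held 33276 of 46471 Ins2 UMIs and 7964 of 12826 Ins1 UMIs. At 1 week the highest held 44763 of 140754 Ins2 UMIs, and 1 remaining macrophage held 14987 of 15244 Gcg UMIs. The median hormone share of a cell was 0.0951% and 0.0769% in members, against 0.0905% and 0.0926% in remaining macrophages. Acinar and duct, endothelial and fibroblast markers were each under 6 CPM in members.

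Depth was alike. Members had medians of 6824 UMIs at 12 weeks and 7325 at 1 week, against 6892 and 7403 in the remaining macrophages, and 1637 and 1765 genes, against 1758 and 1845. Cells over 20000 UMIs were 0 and 4 among members, against 4 and 79 among remaining macrophages. A cell with at least 3 UMIs of other cell types' markers may be a mixed droplet. Such cells made up 21.0% of members at 12 weeks and 16.0% at 1 week, against 16.3% and 18.6%, and they were kept in the results and left out in an alternative. Of these members, 26 of 34 at 12 weeks and 15 of 20 at 1 week had at least 3 UMIs of the dendritic cell markers, most of which were Siglech, so that alternative mainly removed members with such UMIs. The libraries shared 3 barcodes. Free RNA was read from B and T cells, barcodes with lymphocyte markers (at least 3 UMIs) and under 5 C1q UMIs, 54 at 12 weeks and 33 at 1 week, with medians of 3541 and 4971 UMIs. In them Ptgs2 had 2 UMIs at 12 weeks, and Cxcl1, Cxcl3 and Il1a had 0 UMIs, which at 3 counts allows a share of cells with a UMI of up to 5.56% and 9.09% (exact binomial upper limits 6.60% and 10.6%). Cxcl1 had UMIs in 59.9% of 12-week and 70.4% of 1-week members, against 8.16% and 14.8% of remaining macrophages. With cells thinned to 2000 UMIs the shares were 51.6% and 63.0% of members, against 3.91% and 7.11% of remaining macrophages, and 0 of 46 and 0 of 33 lymphocytes had a Cxcl1 UMI.

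Which other genes set these cells apart was tested on counts summed per library, members minus the remaining macrophages, with the 4 rule genes left out of the table. In edgeR's quasi-likelihood test, blocked by library, with a Benjamini-Hochberg adjusted p of at most 0.05, 841 of 9908 genes were called (8.49%), 628 of them higher in members (6.34% of all genes tested) and 213 lower (2.15%). The ratio of levels pointed the same way in both libraries for 599 of the 628 and 208 of the 213. At least a 2-fold change was seen for 116 of the higher and 131 of the lower genes. The test rests on 2 libraries that differ in time label and has 1 residual degree of freedom, with 156.1 prior degrees of freedom, so its p-values rest mostly on a spread estimated over all genes together and little on how far a gene's own difference varied between these 2 pools. They also take no account of members having been chosen within the same cells. With the library block left out no gene was called, while 870 fell under 0.05 in unadjusted p. DESeq2 called 196 higher and 17 lower. The scaling also matters for small changes. The TMM factors of edgeR, 0.929 and 0.958 in members against 1.04 and 1.08 in the remaining macrophages, lift members by about 0.17 on the log2 scale. With total UMIs alone the median over all genes was -0.20, against -0.03, and 368 genes were called higher and 602 lower, which takes the share of calls that are higher to 37.9%, against 74.7%. Without cells carrying other cell types' markers the counts were 395 higher and 77 lower, of which 394 and 76 were among the calls above, and without macrophages whose hormone transcripts exceeded 1% of UMIs they were 534 and 148.

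The chemokine Cxcl2 and the CC chemokines Ccl3 and Ccl4 were higher in members of both libraries. Of the 14 genes tested in the chemokine list, which leaves out the rule genes and holds the receptor Ccrl2, 9 were called higher and 1 lower. Their median log2 fold change was 0.76, beside -0.03 over all genes tested. The counts of this and the later lists stand beside 6.34% higher and 2.15% lower over all genes tested. Without cells carrying other cell types' markers 7 were higher and none lower. Cxcl2, the neighbour of Cxcl1 and Cxcl3 and another ligand of the neutrophil receptor CXCR2, had 12838 CPM in 12-week and 12639 CPM in 1-week members, against 3604 and 3198 CPM in the remaining macrophages. Its log2 fold change was 2.07 ± 0.05 (SE of the edgeR fit to 2 libraries, adjusted p = 9.38e-87). Like the p-values, the standard errors given here and below rest mostly on a spread estimated over all genes together. They do not measure how far apart the 2 libraries lay. In cells thinned to 2000 UMIs it was found in 97.5% and 100% of members, against 65.7% and 70.8% of the remaining macrophages, so it was widespread outside the members too. Free RNA gave lower shares, 10.9% and 9.09% of thinned lymphocytes. Of the 31-base words in the last 500 transcript bases, 10.9% of those of Cxcl2 also occur in a Cxcl3 transcript, and none of those of Cxcl3 occur in Cxcl2. Cxcl1 shares none with either. A small part of the Cxcl2 reads could therefore match the rule gene Cxcl3 too.

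Ccl3 and Ccl4, which attract monocytes and T cells, followed. Ccl3 had 1599 CPM in 12-week and 2019 CPM in 1-week members, against 635 and 459 CPM, a log2 fold change of 1.90 ± 0.08 (adjusted p = 1.02e-51). Ccl4 had 3659 and 5294 CPM in members, against 1531 and 1701 CPM (1.61 ± 0.06). Both were high in both member groups with no overlap. Ccrl2, a receptor that presents chemerin without signalling, had 312 and 361 CPM in members, against 138 and 158 CPM (1.35 ± 0.10). Cxcl10, an interferon-induced ligand for T cells, Ccl9 and Ccl5 were higher by 0.79, 0.74 and 0.56 on the log2 scale. The monocyte chemokines were carried by few cells. Ccl7 had 15.7 CPM in 12-week and 80.1 CPM in 1-week members, against 15.2 and 9.74 CPM, and 1 member held 69.9% of the 1-week member UMIs. Its log2 fold change of 2.05 was 0.06 in the 12-week library taken alone and 1.17 without the highest cell of each profile, and the call was lost with DESeq2 and without cells carrying other cell types' markers. Ccl2 had 32.4 and 80.1 CPM in members, against 30.2 and 30.9 CPM, with 51 of its 83 1-week member UMIs in 1 cell. Cxcl9, a ligand induced by interferon gamma, was the list's lower gene, at 1.85 and 2.90 CPM in members, against 21.7 and 12.7 CPM, and 1 remaining cell held 55.3% of the UMIs of that group at 1 week. Pf4, Cxcl16, Ccl6 and Ccl12 were not called, and Ccl24 and Ppbp were too low to test.

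**Figure D2:**
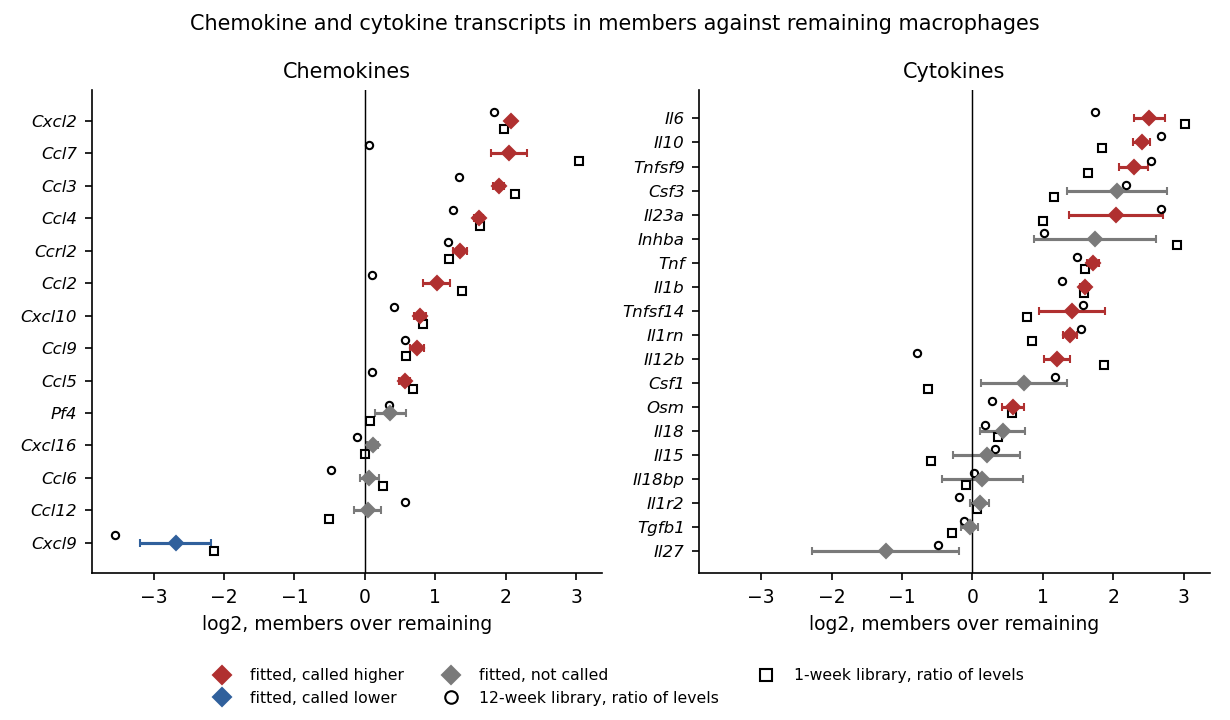
Log2 fold changes, members over remaining macrophages, of the chemokine list with the receptor Ccrl2 (left) and the cytokines (right), outside the rule genes. Fitted diamonds carry standard errors of the fit, which do not measure the spread between the libraries. They are red where called higher, blue where called lower and grey where not called. Open circles and squares give the ratio of levels in the 12-week and 1-week library. Cxcl2 stands near 2 in the fit and in both libraries, while the libraries lie apart for Ccl7 (0.06 and 3.04) and on opposite sides of 0 for Il12b.

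Cytokines were higher alongside the chemokines, both alarm signals and cytokines that restrain them. Of 19 tested besides Il1a, 10 were called higher and none lower, with a median log2 fold change of 1.39. DESeq2 called 6 of them higher, and 8 were higher without cells carrying other cell types' markers. Il1b, the partner of Il1a that is released after inflammasome cleavage, had 3339 CPM in 12-week and 3680.5 CPM in 1-week members, against 1389 and 1223 CPM, a log2 fold change of 1.59 ± 0.06 (adjusted p = 1.65e-55). Tnf, an early cytokine of the NF-kB response, had 739 and 1237 CPM in members, against 264 and 407 CPM (1.71 ± 0.08, adjusted p = 2.07e-45). Il6, a cytokine of the acute phase, had 53.7 and 69.5 CPM in members, against 16.0 and 8.58 CPM (2.51 ± 0.21, adjusted p = 8.14e-21). The member groups lay above the remaining groups in both libraries for all 3 genes, and Il6 had UMIs in 15.4% and 15.2% of members. The Il6 difference was smaller at 12 weeks, a log2 ratio of levels of 1.75, than at 1 week, 3.02.

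Il10, which restrains macrophage activation, had 240 CPM in 12-week and 276 CPM in 1-week members, against 37.3 and 76.9 CPM in the remaining macrophages. Its log2 fold change of 2.40 ± 0.12 (adjusted p = 8.85e-42) was among the highest of all genes, and the log2 ratios of levels were 2.68 at 12 weeks and 1.84 at 1 week. Il1rn, the natural antagonist of the IL-1 receptor, had 456 and 246 CPM in members, against 156 and 137 CPM (1.39 ± 0.10). Both restraining genes were thus higher in the members, which were chosen in part for Il1a. Tnfsf9, the ligand of the T cell receptor 4-1BB, had 76.0 and 45.4 CPM in members, against 13.1 and 14.6 CPM (2.29 ± 0.21), with log2 ratios of 2.53 and 1.64. Il12b, a subunit of IL-12 and IL-23, was called higher (1.20 ± 0.19) although the libraries opposed each other: 20.4 CPM in 12-week members against 35.3 CPM, and 160 CPM in 1-week members against 43.9 CPM. One member held 55 of the 166 UMIs at 1 week. Osm, Tnfsf14 and Il23a were called higher at low levels, and Osm and Tnfsf14 were lost with total UMIs as library sizes. Il23a, with 8 and 4 UMIs in members, lost its call with DESeq2, without cells carrying other cell types' markers and without the highest cell of each profile, among other settings. Csf3 missed the threshold at 0.0505 (8.34 and 1.93 CPM in members, against 1.83 and 0.868 CPM), and Tgfb1, Il18 and the decoy receptor Il1r2 were not called.

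The NF-kB list was the one with the highest share of called genes, 19 of 23 higher and none lower, with a median log2 fold change of 0.75. With total UMIs as library sizes 17 were called higher, and DESeq2 called 13. The feedback genes led. Tnfaip3 (A20), a ubiquitin editor that shuts the pathway off, had 397 CPM in 12-week and 387 CPM in 1-week members, against 160 and 174 CPM (1.40 ± 0.10, adjusted p = 5.08e-28). Nfkbia, the inhibitor IkB-alpha, had 861 and 1058 CPM in members, against 504 and 641 CPM (0.91 ± 0.08). Nfkbiz, a nuclear cofactor that NF-kB needs for a late group of targets, had 254 and 371 CPM in members, against 124 and 200 CPM (1.12 ± 0.10). For these genes the 2 member groups stood above both remaining groups. Zc3h12c, a relative of the RNase regnase-1, rose by 1.46 ± 0.14 on the log2 scale, and the inhibitors Nfkbid and Nfkbib by 1.09 and 1.06. Sod2, the mitochondrial superoxide dismutase and an NF-kB target, had 697 and 597 CPM in members, against 326 and 361 CPM (1.08 ± 0.09). The subunit genes moved less: Nfkb1, Rel, Nfkb2, Relb and Rela were called higher by 0.75, 0.72, 0.67, 0.57 and 0.41, and Rela was lost with total UMIs as library sizes. Birc3, Bcl3, Cyld and Ikbke were not called.

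Most genes of the list named for mRNA decay and turn-off were also higher. Of 12 genes for mRNA decay and turn-off, 8 were called higher and 1 lower (median 0.58). Dusp2 and Dusp5, phosphatases of MAP kinases, rose by 1.05 and 1.01 on the log2 scale, and Pde4b, which degrades cyclic AMP, by 1.01. Zfp36 (tristetraprolin), which marks cytokine mRNA for decay, had 525 CPM in 12-week and 662 CPM in 1-week members, against 441 and 406 CPM (0.65 ± 0.09). Its relative Zfp36l2 went the other way, at 44.5 and 58.9 CPM in members, against 117 and 142 CPM (-1.16 ± 0.15, adjusted p = 1.05e-10). Gpr84, a receptor for medium-chain fatty acids that inflammatory signals induce, rose by 0.95.

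Sensors of microbial products moved in part. Of 17 pattern recognition receptors 5 were called higher and none lower (median 0.42). Cd14, the co-receptor for lipopolysaccharide, had 2897 CPM in 12-week and 2889.8 CPM in 1-week members, against 1629.7 and 1843 CPM (0.91 ± 0.06, adjusted p = 9.17e-30). Tlr2 had 718 and 845 CPM in members, against 425 and 620 CPM (0.77 ± 0.08). Clec4e (Mincle), Clec4d and Tlr7 were also called, by 1.11, 0.71 and 0.77, while Tlr4 stood at 11.1 and 6.76 CPM in members, against 18.0 and 14.6 CPM, and was not called. Of 13 genes of IL-1 sensing and processing 3 were called higher (23.1%, beside 6.34% of all genes tested, median 0.05). Nlrp3, the inflammasome sensor, had 642 and 559 CPM in members, against 298 and 259 CPM (1.27 ± 0.09, adjusted p = 1.02e-28). Casp4 rose by 0.52 and Myd88 by 0.63, the Myd88 call being lost with total UMIs as library sizes. Casp1 (29.6 and 34.8 CPM in members, against 42.7 and 34.2 CPM), Gsdmd and the receptor Il1r1 were not called. Beside the rule gene Ptgs2, 3 of 13 tested eicosanoid genes were called higher (median -0.03), none in cells thinned to 2000 UMIs, and with total UMIs as library sizes 2 were higher and 1 lower. Ptger4, a receptor for prostaglandin E2, had 53.7 and 76.3 CPM in members, against 44.2 and 41.0 CPM (0.77 ± 0.17), and Hpgds, a synthase of prostaglandin D2, rose by 0.47. Ptges, the inducible synthase of prostaglandin E2, was too low to test.

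Several of the highest fold changes belonged to secreted factors outside the cytokine lists. Edn1, the vasoconstrictor endothelin-1, led at 3.12 ± 0.33 (adjusted p = 5.22e-15), with 25.9 CPM in 12-week and 30.9 CPM in 1-week members, against 3.18 and 4.15 CPM. It came from few cells: UMIs were found in 4.94% and 6.40% of members, 1 cell held 50% of the 12-week and 53.1% of the 1-week member UMIs, and the call was lost in thinned cells. Areg (amphiregulin), a ligand of the epidermal growth factor receptor, had 152 and 72.4 CPM in members, against 28.7 and 17.6 CPM (2.42 ± 0.16, adjusted p = 9.17e-30), and was found in 22.8% and 16.0% of members. Mmp13, a collagenase, had 699 and 497 CPM in members, against 203 and 199 CPM (1.73 ± 0.09, adjusted p = 1.56e-39). Areg and Mmp13 were high in both member groups, and the 2 remaining groups lay below. Clcf1, a cytokine of the IL-6 family, had 65.8 and 59.9 CPM in members, against 21.4 and 18.4 CPM (1.82 ± 0.19). Of 12 growth and angiogenic factors 4 were called higher and none lower (median 0.39): Areg, Hbegf, another ligand of that receptor, and Plau and Plaur, the urokinase protease and its receptor. Plau had 253 CPM in the members of each library, against 120 and 103 CPM (1.35 ± 0.11), and Plaur 559 and 484 CPM, against 309 and 214 CPM (1.18 ± 0.09). Vegfa, Pdgfa, Pdgfb and Igf1 were not called.

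Immediate early genes, which many stimuli, cell isolation included, switch on quickly, split in direction. Of 26 tested, 15 were called higher and 3 lower (median 0.43). Maff had 205 CPM in 12-week and 235 CPM in 1-week members, against 117 and 103 CPM (1.16 ± 0.11), and Fosl1 rose by 1.03. Egr1 and Atf3 were called higher by 0.49 and 0.40, although their ratios of levels at 12 weeks were just below 0. Fos and Jun, subunits of AP-1, went the other way. Fos had 233 and 155 CPM in members, against 316 and 235 CPM (-0.35 ± 0.10, adjusted p = 0.0144), and Jun had 186 and 180 CPM, against 272 and 258 CPM (-0.37 ± 0.11, adjusted p = 0.00993). Nr4a2 had 7.41 and 8.69 CPM in members, against 31.8 and 13 CPM (-1.29 ± 0.34). DESeq2 called 9 of the list higher and none lower. The top 10% of macrophages by Fos, Jun and Egr1 together held 4.94% of 12-week and 4% of 1-week members, against 10.6% and 10.7% of remaining macrophages. Of 16 heat shock genes 5 were called higher, all by under 0.5 on the log2 scale (median 0.14), and 2 were called higher with total UMIs as library sizes. Hspa8, a constitutive chaperone, had 5490.0 and 2934 CPM in members, against 4458 and 2824 CPM (0.35 ± 0.05), and the inducible Hspa1a had 2859 and 1579 CPM, against 2679 and 1586 CPM, so that it was higher at 12 weeks and not at 1 week. Of 16 genes of the integrated stress and unfolded protein responses 5 were called higher (median 0.13). Ppp1r15a (GADD34), which ends translational arrest, had 424 and 429 CPM in members, against 205 and 182 CPM (1.31 ± 0.09), and Gadd45b rose by 1.05. Ddit3 and Atf5 were not called.

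Targets of NRF2, the transcription factor of the antioxidant response, were called higher in 14 of 23 cases with none lower (median 0.33). With total UMIs as library sizes 11 were, and DESeq2 called 8. Slc7a11, the cystine importer, had 485 CPM in 12-week and 389 CPM in 1-week members, against 277 and 229 CPM (0.95 ± 0.09, adjusted p = 2.05e-17). Txnrd1, which reduces thioredoxin, had 1464 and 1006 CPM in members, against 925 and 630.5 CPM (0.83 ± 0.07). Hmox1, which breaks down heme, had 4570.1 and 2442 CPM in members, against 3673 and 1747 CPM (0.56 ± 0.06). The 1-week members thus had less Hmox1 than the 12-week remaining macrophages, so the groups separate within a library and not across both. Srxn1 and Sqstm1 rose by 0.82 and 0.68. Gsr, Taldo1, Tkt and G6pdx were not called. Of 22 genes of glycolysis and hypoxia 1 was called higher (4.55%, beside 6.34% of all genes tested) and 1 lower (median 0.19). The higher one was Hk2, the inducible hexokinase, with 138 and 160 CPM in members, against 66.7 and 107 CPM (0.97 ± 0.13), and the lower one was Eno1, an enolase (-0.68).

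For antigen presentation, costimulation and not MHC class II itself moved most. Of 11 genes 8 were called higher and none lower (median 0.26), and 3 with total UMIs as library sizes. Those 3 were the costimulatory genes. Cd40 had 219 CPM in 12-week and 248 CPM in 1-week members, against 117 and 139 CPM (1.04 ± 0.11). Cd83 had 851 and 1024 CPM in members, against 571 and 614 CPM (0.82 ± 0.08), and Cd86 rose by 0.43. The invariant chain gene Cd74 had 32476 and 33029.9 CPM in members, against 32408 and 31043.5 CPM (0.21 ± 0.03), and the call of a higher Cd74 depends on the TMM scaling, as do those of H2-Aa, H2-Ab1, H2-Eb1 and H2-DMb1. Of 18 interferon genes 6 were called higher and 1 lower (median 0.14). Ifnb1, the interferon beta gene, had 13.9 and 64.7 CPM in members, against 4.05 and 12.6 CPM (2.35 ± 0.28, adjusted p = 4.08e-12), with UMIs in 3.09% and 12.0% of members. Isg15, a ubiquitin-like product of interferon signalling, had 314 and 428 CPM in members, against 179 and 191 CPM (1.16 ± 0.10). Oasl1, Irf1, Ifit1 and Rsad2 rose by 0.95, 0.69, 0.65 and 0.51, and Mx1, Ifit3 and Usp18 were not called. Irf7, the amplifier of type I interferon, was called lower (-0.82). That call was lost with DESeq2, in thinned cells and without cells carrying other cell types' markers, among other settings.

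The lipid, lineage and scavenging lists had medians between -0.10 and 0.20, while single genes changed more, in both directions. Of 22 lysosome and lipid genes 10 were called higher and 1 lower (median 0.20), and 2 each with total UMIs as library sizes. Cd36, a scavenger of oxidised lipid, had 322 CPM in 12-week and 304 CPM in 1-week members, against 228 and 208 CPM (0.69 ± 0.10). Abcg1, a cholesterol exporter, had 46.3 and 57.9 CPM in members, against 129 and 106 CPM (-1.01 ± 0.15, adjusted p = 5.25e-08). Of 8 scavenger and efferocytosis receptors 1 was called (12.5% higher, beside 6.34% of all genes tested), the integrin subunit Itgav (0.82, median of the list -0.10). Of 20 lineage and growth factor receptor genes 6 were called higher and 3 lower (median -0.05), and 3 and 6 with total UMIs as library sizes. The fractalkine receptor Cx3cr1 had 63.0 and 56.0 CPM in members, against 127 and 169 CPM (-1.13 ± 0.14, adjusted p = 6.23e-11), and Csf2rb and Cxcr4 each fell by 0.54. Spic, a factor of iron-recycling macrophages, rose by 0.61.

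Several proliferation genes were lower. Of 15 cell cycle genes 7 were called lower and none higher, with a median log2 fold change of -1.12, also with genes at 0 placed at their bound. Stmn1, a regulator of microtubules, had 7.41 CPM in 12-week and 18.3 CPM in 1-week members, against 39.6 and 67.1 CPM (-1.89 ± 0.25, adjusted p = 3.02e-10). Top2a, the topoisomerase of dividing cells, had 0 UMIs in members, against 260 UMIs in the remaining macrophages. With a floor of 3 counts over both libraries it was at least 8.84-fold lower in members. Ube2c, Rrm2 and Cdk1 were also at 0 in members and at least 3.20-, 2.89- and 2.62-fold lower. These bounds treat UMIs as separate counts and leave out how they were spread over cells, so they are not firm minima. Mki67 was not called, at 36.1 and 18.3 CPM in members, against 20.9 and 26.5 CPM, and neither was Pcna. The number of lower cell cycle calls was 2 with DESeq2, 1 in thinned cells and 4 without cells carrying other cell types' markers. The list's median was -0.69 in thinned cells and -0.54 without cells carrying other cell types' markers. The top 10% of macrophages by Mki67, Top2a and Stmn1 together held 11.1% of 12-week and 5.6% of 1-week members, against 9.88% and 10.6% of remaining macrophages, a difference that ran in opposite ways in the libraries and was not tested. Of 21 nuclear respiratory chain genes 2 were called lower, among them Cox5a (-0.40), beside 2.15% of all genes tested (median of the list -0.09). With total UMIs as library sizes 7 were called lower, where 602 of all 9908 genes tested were.

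**Figure D3:**
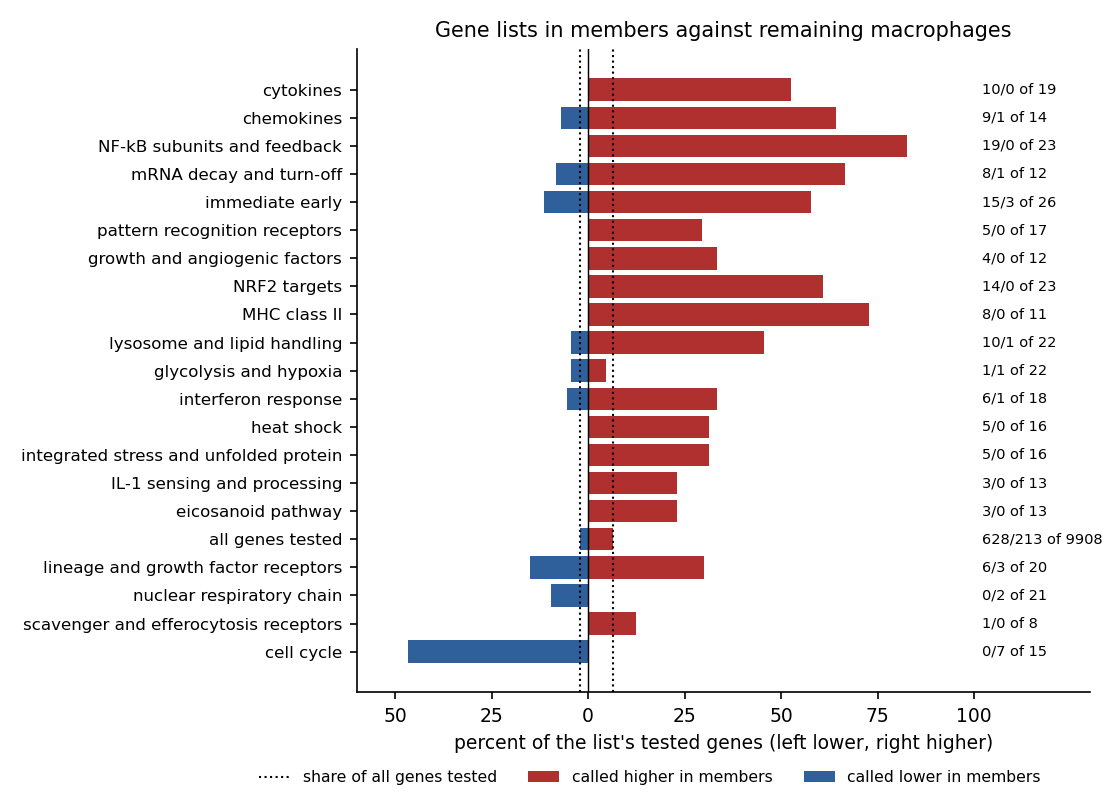
Share of each list's tested genes called higher (right) or lower (left) in members than in remaining macrophages, with the counts at the right edge and dotted lines at the shares over all 9908 genes tested, 6.34% higher and 2.15% lower. The NF-kB, MHC class II, mRNA decay and chemokine lists have the largest shares of higher calls, and the MHC class II and lysosome calls depend on the scaling.

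The genes with the lowest fold changes were mostly set by single cells among the remaining macrophages. Gcg, the glucagon gene, had 13.9 CPM in 12-week and 24.1 CPM in 1-week members, against 20.2 and 1469.8 CPM in the remaining macrophages, where 1 cell held 98.3% of the 1-week UMIs. Without the highest cell of each profile its log2 fold change was -0.10, against -4.91. Hbb-bs, a hemoglobin gene, Ppy, Txndc16, Pcsk2, Ttr and Scg2 had 62.4% to 100% of a remaining group's UMIs in 1 cell in at least 1 library, and Igkc, an immunoglobulin gene, had 51.3% at 1 week. Hist1h2ap, Yae1d1, Stmn1 and Tnfaip8l2 had no cell with 50% or more of a group's UMIs. Tnfaip8l2, a negative regulator of immune signalling, had 6.48 and 8.69 CPM in members, against 29.0 and 33.6 CPM (-1.88 ± 0.31).

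Several levels were ordered along the score. Macrophages were placed in 4 bands: no UMI of the 4 genes, some UMIs under the 90th percentile, the 90th to 95th percentile, and the 95th percentile or above. Cxcl2 had 2268, 5244, 9908 and 15880.0 CPM in these bands at 12 weeks and 1386, 4266, 8572 and 16595 CPM at 1 week. Il1b had 1099, 1746, 2779 and 3920.4 CPM at 12 weeks and 727, 1515, 2932 and 4409 CPM at 1 week. Il10 had 16.5, 63.0, 140 and 344 CPM at 12 weeks and 25, 108, 217 and 333 CPM at 1 week. All 3 were ordered by band in both libraries, and members are the upper 2 bands. Fos had 340, 286, 253 and 212 CPM at 12 weeks, in falling order, and 314, 189, 119 and 189 CPM at 1 week. Hmox1 had 3313, 4114, 4368 and 4780 CPM at 12 weeks and 1370, 1970, 1909 and 2959 CPM at 1 week.

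**Figure D4:**
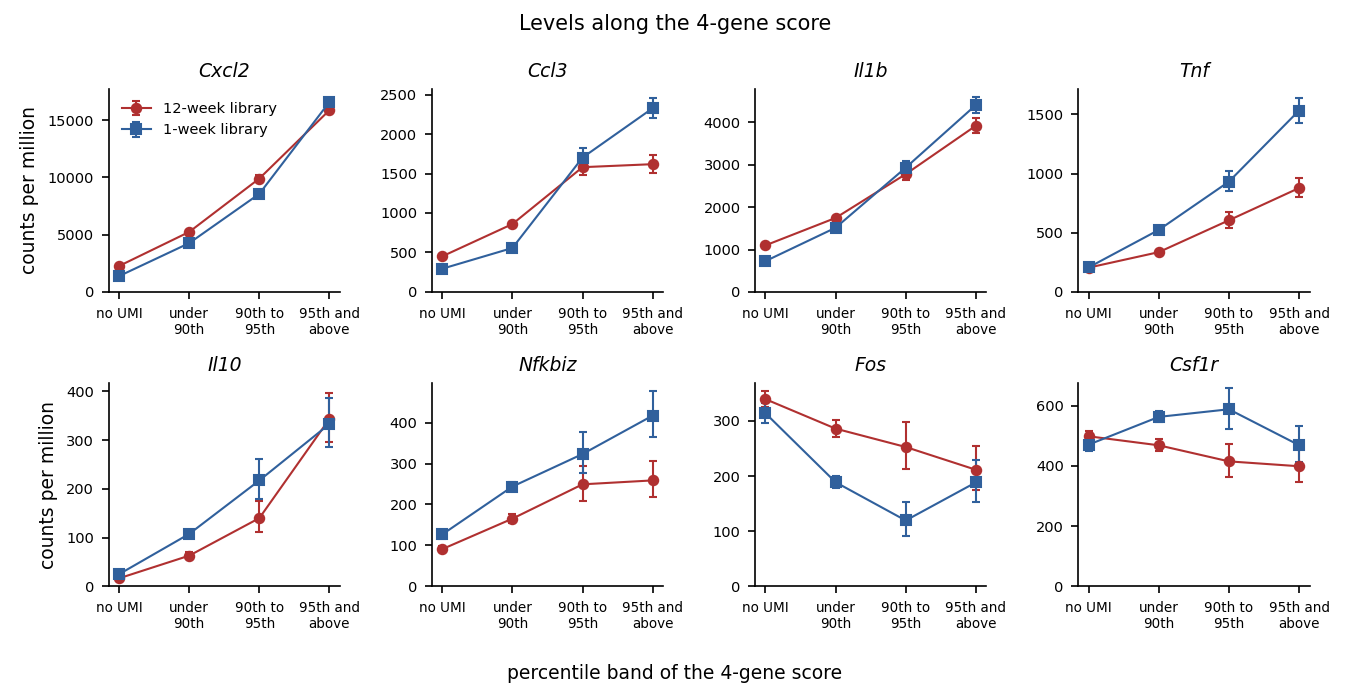
Levels of 8 genes outside the rule, in counts scaled to CPM on linear axes that start at 0, across 4 bands of the summed share of the rule genes in the 12-week (circles) and 1-week (squares) library, with exact Poisson 95% intervals for counting error only. Cxcl2, Il1b, Tnf and Il10 are ordered by band in both libraries, while Fos is lower in both member bands than in cells with no UMI of the rule genes.

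Members led by different rule genes varied in their other genes. At 12 weeks the 79 members led by Cxcl1, the 23 led by Cxcl3, the 30 led by Il1a and the 30 led by Ptgs2 had 14844, 10736, 12856 and 9319 CPM of Cxcl2. At 1 week the 58, 26, 32 and 9 such members had 14274, 7465, 12879 and 15077 CPM. Every one of these groups lay above the remaining macrophages of its library. Il1b was highest in members led by Il1a in both libraries, at 4242 CPM at 12 weeks and 5189 CPM at 1 week, and Tnf likewise, at 1082 and 1742 CPM. Il10 was highest at 12 weeks in members led by Cxcl1 (306 CPM) and at 1 week in the 9 led by Ptgs2 (809 CPM). These groups share libraries and hold few cells, so the values are a description. Cells with more of the 4 genes had more Cxcl2 at 12 weeks, 7687, 12869, 15712 and 22738 CPM for 1 to 4 genes (the last from 4 cells). At 1 week the order was not kept, with 15275.5, 12059.7, 12757 and 12455 CPM. Cells with more of the 4 genes also had higher median UMIs in both libraries, as given above.

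Heat shock-high and Hmox1-high macrophages, the top 10% by Hspa1a and Hspa1b and by Hmox1, are 2 other sets in the same libraries that a stressed or activated cell could enter. The heat shock-high set held 9.26% of members at 12 weeks and 10.4% at 1 week, against 10.1% and 10.0% of the remaining macrophages, and the Hmox1-high set 10.5% and 14.4%, against 9.95% and 9.57%. The top 10% by interferon genes held 14.8% and 19.2% of members, against 9.47% and 9.03%, and the top 10% by Tnf 30.2% and 33.6%, against 7.75% and 7.42%. No difference between these shares was tested. For a direct comparison, cells in 1 set alone were summed: 133 members at 12 weeks and 98 at 1 week, 120 and 85 heat shock-high cells, and 118 and 80 Hmox1-high cells, while the 56 and 54 cells in more than 1 set were left out.

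Against heat shock-high macrophages, members had more of the chemokine, NF-kB, pattern receptor and interferon genes and less of the immediate early genes. Among 5990 genes edgeR called 579 (9.67%), 314 higher in members (5.24%) and 265 lower (4.42%). Chemokines were called higher in 9 of 14 cases (median log2 fold change 1.11), NF-kB genes in 13 of 22 (0.77), pattern recognition receptors in 7 of 13 (1.01) and interferon genes in 9 of 17 (1.36), with none lower in these 4 lists, beside a median of 0.00 over all genes tested. Il10 had 254 CPM in 12-week and 239 CPM in 1-week members, against 25.6 and 50.2 CPM in heat shock-high cells (2.81 ± 0.27). Mmp13 had 763 and 505 CPM in members, against 73.2 and 131 CPM (2.68 ± 0.23), and Slc7a11 490 and 357 CPM, against 92.7 and 104 CPM (2.14 ± 0.20). Cxcl2 had 12182 and 11214 CPM in members, against 5194 and 4581 CPM (1.31 ± 0.13), so heat shock-high cells carried it too. The 5 highest were Gbp5, an interferon-induced GTPase, Edn1, Il12b, Ifnb1 and Ccl7, with log2 fold changes of 5.01, 3.71, 3.61, 3.21 and 2.86. Ccl7 lost its call with DESeq2, and Gbp5, Il12b, Ifnb1 and Ccl7 lost theirs without the library block. Single members held a large part of the Edn1, Il12b and Ccl7 UMIs in at least 1 library, as given above. Gbp5 had 38 UMIs in members and 1 in heat shock-high cells, a ratio of levels of 33.6 with an exact 95% counting interval of 5.68 to 1363. That interval treats UMIs as separate counts and leaves out that Gbp5 was named for the highest fold change. Its limits are therefore not firm. Of 23 immediate early genes 13 were called lower in members and none higher (median -0.85), and Nr4a2 had 7.57 and 8.19 CPM in members, against 112 and 48.9 CPM (-3.30 ± 0.35). Pomc, the pro-opiomelanocortin gene, Arc, an immediate early gene, Igkc and Dopey2 were the other genes of the 5 lowest. The last 2 rested mostly on the 1-week library. Igkc had 1.08 CPM in 12-week and 8.19 CPM in 1-week members, against 1.22 and 112 CPM in heat shock-high cells. Dopey2 had 19.5 and 12.9 CPM in members, against 37.8 and 397 CPM in heat shock-high cells, and lost its call with DESeq2. Of 14 heat shock genes 12 were called lower (median -1.24), and those cells were chosen by 2 heat shock genes left out of the test. Nfkbiz was not called (0.53 ± 0.19), nor were Maff, Plaur and Ppp1r15a.

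Against Hmox1-high macrophages, the inflammatory genes differed and the antioxidant genes went the other way or were not called. Of 5990 genes 191 were called (3.19%), 132 higher in members (2.2%) and 59 lower (0.985%), and no gene was called without the library block. Chemokines were called higher in 7 of 14 cases (median 1.06), cytokines in 6 of 11 (1.59) and NF-kB genes in 13 of 22 (0.78), with none lower. Il10 had 254 CPM in 12-week and 239 CPM in 1-week members, against 24.7 and 53.5 CPM in Hmox1-high cells (2.80 ± 0.28), and Isg15 had 304 and 475 CPM, against 105 and 125 CPM (1.79 ± 0.19). Ifnb1 and Edn1 had 0 UMIs in Hmox1-high cells. Their levels in members were 19.7 and 14.0 times a floor of 3 counts over both libraries. Few cells carried them: among all members Edn1 had UMIs in 8 cells of each library, and Ifnb1 in 5 at 12 weeks and 15 at 1 week. The floor counts UMIs and leaves out how they were spread over cells, so these ratios are not firm minima. Il12b and Plscr1, an interferon-induced gene, completed the 5 highest. Of 21 NRF2 targets 7 were called lower in members and none higher (median -0.39). Hmox1-high cells were chosen by Hmox1, itself an NRF2 target and left out of the test. The lower NRF2 targets are therefore not independent of that choice. Cbr3, a carbonyl reductase, had 95.1 and 65.5 CPM in members, against 211 and 224 CPM (-1.41 ± 0.22), and Rab3il1, Dohh and Etnk1 were also among the 5 lowest. Slc7a11 (490 and 357 CPM in members, against 378 and 505 CPM) and Txnrd1 were not called, with log2 fold changes of -0.01 ± 0.18 and -0.09 ± 0.13. Heat shock genes were called lower in 11 of 14 cases and higher in 1, Hspa5. The 3 comparisons share the member cells in large part, so some overlap between them is built in. Of 5990 genes tested against the 2 other sets, 98 were called higher in members against both. Of these 98, 89 were also called higher against the remaining macrophages. The shares called higher were 6.34% against remaining, 5.24% against heat shock-high and 2.2% against Hmox1-high macrophages.

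**Figure D5:**
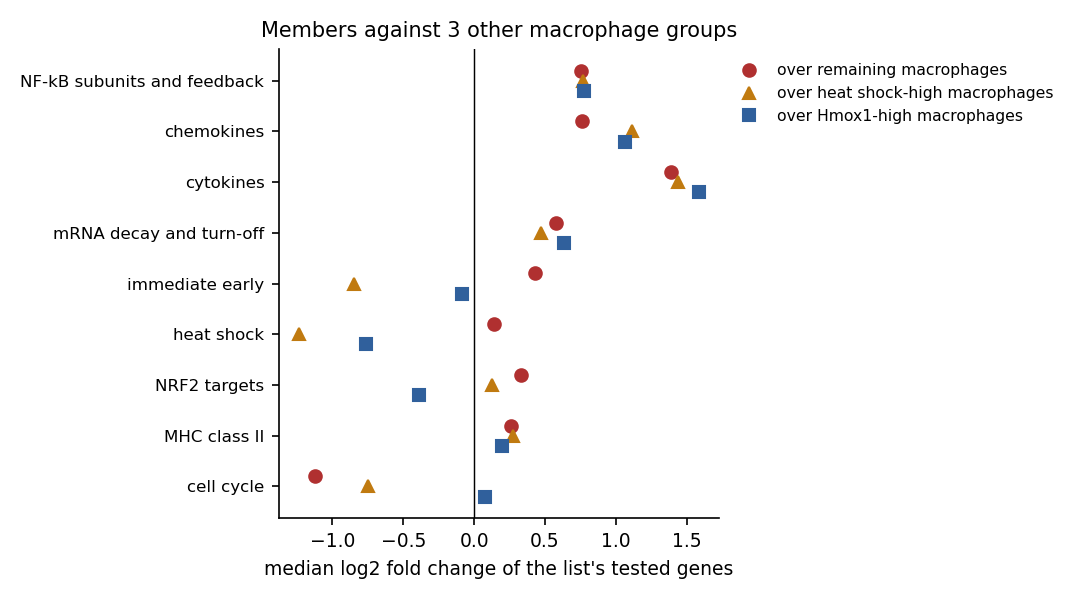
Median log2 fold change of the tested genes of 9 lists in members over remaining (circles), heat shock-high (triangles) and Hmox1-high (squares) macrophages, with no error since each point is a median over genes. The NF-kB, chemokine and cytokine medians are above 0.7 in all 3 comparisons. The NRF2 median is 0.33 over remaining and -0.39 over Hmox1-high macrophages, which were chosen by an NRF2 target.

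Between the time labels there is 1 library each, so the members' levels are given with exact Poisson 95% intervals that cover counting error only, and no test was made. Cxcl2 was close, at 12838 CPM (12625 to 13053) in 12-week and 12639 CPM (12424 to 12858) in 1-week members. Tnf was lower at 12 weeks, 739 CPM (689 to 792), than at 1 week, 1237 CPM (1170.0 to 1306), as it was in the remaining macrophages, at 264 and 407 CPM. Ifnb1 stood at 13.9 CPM (7.78 to 22.9) at 12 weeks and 64.7 CPM (50.1 to 82.2) at 1 week, and 1 member held 25 of the 67 UMIs at 1 week. Il1rn was higher at 12 weeks, 456 CPM (416 to 498), than at 1 week, 246 CPM (217 to 278). So was Areg, at 152 CPM (130 to 177) and 72.4 CPM (57.0 to 90.8). For Areg the 3 highest members held 39.0% of the member UMIs at 12 weeks and 50.7% at 1 week. Hmox1 stood at 4570.1 CPM (4443 to 4699) in 12-week and 2442 CPM (2348 to 2539) in 1-week members, and in the remaining macrophages at 3673 and 1747 CPM. Hspa1a had the same pattern, at 2859 and 1579 CPM in members and 2679 and 1586 CPM in the remaining macrophages. For Tnf, Hmox1 and Hspa1a the difference between the libraries thus ran through all macrophages and was not that of members alone.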

How the data were processed

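The authors deposited raw UMI counts per gene and barcode for 2 libraries. Cell Ranger and the mm10 build are named in the submitters' processing notes, and the file headers give version 3.1.0. The choice of barcodes as cells is not stated in the sources used. The libraries held 1867 barcodes and 12448628 UMIs (12 weeks) and 1551 barcodes and 12858754 UMIs (1 week), of which 1752 and 1340 barcodes passed the filters. No doublet caller was run, and cells with at least 3 UMIs of 56 markers of other cell types were left out as an alternative.

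Counts were summed per library and group and tested with edgeR 4.0.16 in R 4.3.3 (TMM, filterByExpr, quasi-likelihood test, library as block, Benjamini-Hochberg at 0.05). DESeq2 1.42.0, other scalings, filters, percentiles and cell selections were alternatives. The fit to the heat shock-high and Hmox1-high sets had 4 groups, 8 profiles and 3 residual degrees of freedom, and left out Hspa1a, Hspa1b and Hmox1. The script was tested on simulated data. Cells are not replicates, and nothing says that the libraries are biological replicates of one condition beyond being separate pools. Intervals (Clopper-Pearson for shares, exact Poisson for levels) cover counting error only. Gene positions came from a GRCm38 annotation by gene identifier, for 86 of 86 named genes.

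Members and the 20 gene lists were chosen with earlier results of these data known. Genes named beside the rule genes were the 12 highest and 12 lowest by fold change among those called, with the same direction in both libraries and at least 20 CPM in the higher group, the 4 largest called changes of each list, and the 5 highest and 5 lowest against each other set. Further list genes are named to show what was or was not called and were chosen after their values were seen. Some genes stand in more than 1 list, and some genes that this rule names are not reported here.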

Additional observations from a re-analysis of the deposited data

Results flagged for a closer look

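Of all genes called, 29 of the 628 higher and 5 of the 213 lower did not have ratios of levels pointing the same way in both libraries. Among the named genes and the called genes of the 20 lists, the ratio of levels, members over remaining macrophages, pointed in opposite ways in the 2 libraries for 10, all called higher. The difference between the libraries was not tested, since each time label has 1 library. Il12b had a log2 ratio of levels of -0.79 at 12 weeks and 1.87 at 1 week. Egr1 had -0.0845 at 12 weeks and 0.75 at 1 week, Atf3 -0.0228 and 0.49, Rgs1 -0.0018 and 0.59, and Mt1 -0.0202 and 0.31. Apoe had -0.0375 and 0.24, H2-Ab1 -0.0082 and 0.12, and Ctss -0.0185 and 0.0032. Dnaja1 had 0.13 at 12 weeks and -0.03 at 1 week, and Hspa1a 0.0938 and -0.0063. Apart from Il12b the smaller of each gene's opposed ratios was within 0.1 of 0.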

How the results depend on the processing

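Against the remaining macrophages, 628 genes were higher and 213 lower. The counts were 196 and 17 with DESeq2, 256 and 60 in cells thinned to 2000 UMIs, 395 and 77 without cells carrying other cell types' markers, 417 and 80 with stricter cell filters, 368 and 602 with total UMIs as library sizes (chosen after seeing the data), and 0 and 0 with no replicate block, where 870 genes had an unadjusted p under 0.05. Of the 395 and 77, 394 and 76 were among the calls above. Against heat shock-high cells, 314 and 265 became 194 and 143 with DESeq2 and 62 and 38 with no replicate block. Against Hmox1-high cells, 59 lower genes became 38 with DESeq2, and 132 and 59 became 0 and 0 with no replicate block, where 476 genes had an unadjusted p under 0.05. Other settings kept these counts within 1.5 times.

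Among the 86 named genes, directions turned for Hbb-bs at the 80th percentile (4.07), Igkc in thinned cells (3.32) and without cells carrying other markers (0.80), Gcg, Ttr and Scg2 against depth-matched cells (0.33, 0.54 and 0.36), Pcsk2, Ttr and Scg2 without hormone-rich macrophages (0.84, 0.84 and 0.46, chosen after seeing the data) and Dnaja1 without the 12-week library (-0.0278, against 0.134 without the 1-week library). The other list genes whose direction differs between the libraries are given above. Apart from the construction of each setting the cause was not tested. Of 86 named genes, 36 lost their call with DESeq2, 22 in thinned cells and 9 with total UMIs as library sizes. Leaving out 1 library leaves no residual degrees of freedom, so it gave values and no test. No paired analysis beyond the library block was possible because each time label has 1 library. Depth limits genes under about 20 CPM, whose levels rest on few UMIs in members.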

Other observations

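Siglech, listed as a dendritic cell marker, had UMIs in 52.5% of members at 12 weeks and 47.2% at 1 week, against 38.8% and 38.9% of remaining macrophages, and in 0 of 54 and 0 of 33 lymphocytes. Its level was 131 CPM in 12-week and 93.7 CPM in 1-week members, against 92.6 and 77.7 CPM. The C1q genes, which chose the macrophages, had a median of 47 UMIs per member at 12 weeks and 65 at 1 week, against 59 and 74 per remaining macrophage.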
